A study of Mus musculus with 6 samples.

Results

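The genes described here encode 9 transcription factors of interferon signalling, the STAT family members Stat2, Stat3 and Stat4 and the interferon regulatory factors Irf1, Irf2, Irf3, Irf7, Irf8 and Irf9. They were chosen by name, and their rows were taken from the enhancer-promoter predictions of oligodendrocyte precursor cells (OPCs) by Ensembl gene ID. Of these 9 genes, 7 were among the 32049 target genes listed in at least 1 of the 2 prediction tables. The study asked whether IFN-γ changes the contacts between promoters and enhancers in OPCs. Primary OPCs came from brains of Sox10-Cre/RCE mice, in which Cre under the Sox10 promoter switches on a green fluorescent reporter in the oligodendrocyte lineage, and both conditions share this genotype. The labels give the strain as C57BL/6j, and per the methods the Cre line had that background while the reporter line was a C57BL/6 and CD1 mix. Per the study's methods, brains of pups at postnatal day 4 to 6 were pooled, OPCs were selected by Sox10-GFP or by CD140a, and cultures were kept with IFN-γ for 48 h. Starting 24 h after passaging, Ctr-OPCs were left in proliferation medium, and IFN-γ-OPCs had IFN-γ added to it at 100 ng/mL. H3K27ac HiChIP, which enriches chromatin contacts of regions that carry the acetylation mark of active enhancers and promoters, was run on 3 libraries per condition.

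The labels assign 1 prediction table to the 3 libraries of a condition. Every value below is therefore a pooled value with no replicate error, no p-value was computed, and the read depth is unknown. Differences between the tables are descriptions of these 2 tables, and they cannot be told apart from differences between libraries. The OPC markers Pdgfra, Cspg4, Olig1, Olig2, Sox10 and Gpr17 were listed in both tables, 6 of 6, with promoter activity quantiles of 0.851 to 0.995 in Ctr-OPCs and 0.815 to 0.994 in IFN-γ-OPCs. Of 10 microglia markers, 5 were listed in Ctr-OPCs, with quantiles of 0.473 to 0.802, and 7 in IFN-γ-OPCs, with quantiles of 0.471 to 0.825. Tmem119 and Aif1 were listed with IFN-γ alone, and Ptprc, Fcrls and C1qa in neither table. Of the 5 microglia markers listed in both tables, 3 had a higher total and 3 a higher quantile with IFN-γ. The quantile of Csf1r was 0.473 and 0.625, and the total of P2ry12 was 0.342 and 0.488, a 1.43-fold difference that exceeded that of every STAT and IRF gene listed in both tables. In the other direction, the total of Spi1 was 1.10 in Ctr-OPCs and 0.889 with IFN-γ. Of 6 astrocyte markers, 5 were listed in both tables, with quantiles of 0.590 to 0.817 in Ctr-OPCs and 0.451 to 0.856 in IFN-γ-OPCs, and Aqp4 in neither. Among the 5, 2 had a higher total with IFN-γ, Slc1a3 by 1.29-fold and Slc1a2 by 1.20-fold, and the others a lower one. Both differences also exceeded that of every STAT and IRF gene listed in both tables. The part of other cells in the values below was not tested.

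Interferons bind receptors at the cell surface, receptor-bound JAK kinases phosphorylate STAT proteins, and STAT dimers enter the nucleus. IFN-γ acts through STAT homodimers on gamma-activated sites (GAS), whereas type I interferons act mainly through a complex that holds STAT2 and IRF9 on interferon-stimulated response elements (ISRE). IRF proteins share a DNA-binding domain for ISRE-like sequences, and several IRF genes are themselves interferon targets, so that a first wave of signalling builds the factors of a second. In oligodendroglia, interferon signalling is known to accompany expression of antigen presentation genes.

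Both motifs of these pathways were searched on both strands, GAS as TTCNNNGAA, which is its own reverse complement, and the ISRE core as GAAANNGAAA. Promoters, from 250 bases before to 50 bases after the start site, came from RefSeq (GRCm38.p6, the build of the tables). Of 32544 distinct promoters, 8.33% held a GAS match and 3.45% an ISRE core match. The 9 genes had 13 listed starts, of which 3 held a GAS match, in Irf1, Irf2 and Irf8, and 3 an ISRE core match, in Stat2, Irf2 and Stat4. The match of Stat4 lay at its second listed start, 21092 bases downstream of the start used in the tables. The listed starts of Irf9 lay 414 and 1008 bases downstream of the start in the tables, so these windows do not cover the Irf9 promoter used there, and it was not searched. The promoters of Irf1, Irf2, Stat2 and Irf8 are shown because they carry these letters, and because they belong to a gene listed with IFN-γ alone (Irf1), to genes whose promoter ranked higher with IFN-γ (Irf2 and Stat2) and to a gene listed in neither table (Irf8). All 4 are on the plus strand, with the matches in capitals.
Irf1, chr11:53769764-53770063: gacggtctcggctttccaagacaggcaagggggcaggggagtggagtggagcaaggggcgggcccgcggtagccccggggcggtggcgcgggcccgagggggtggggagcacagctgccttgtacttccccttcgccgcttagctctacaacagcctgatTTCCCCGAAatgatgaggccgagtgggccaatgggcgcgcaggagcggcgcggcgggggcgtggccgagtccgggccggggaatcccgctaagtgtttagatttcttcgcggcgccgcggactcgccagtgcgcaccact
Irf2, chr8:46739495-46739794: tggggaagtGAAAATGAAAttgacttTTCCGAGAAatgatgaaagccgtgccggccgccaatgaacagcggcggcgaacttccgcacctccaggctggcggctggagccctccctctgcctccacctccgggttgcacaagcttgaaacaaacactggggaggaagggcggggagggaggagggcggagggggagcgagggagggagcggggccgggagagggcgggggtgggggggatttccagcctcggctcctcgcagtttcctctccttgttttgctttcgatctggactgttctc
Stat2, chr10:128270248-128270547: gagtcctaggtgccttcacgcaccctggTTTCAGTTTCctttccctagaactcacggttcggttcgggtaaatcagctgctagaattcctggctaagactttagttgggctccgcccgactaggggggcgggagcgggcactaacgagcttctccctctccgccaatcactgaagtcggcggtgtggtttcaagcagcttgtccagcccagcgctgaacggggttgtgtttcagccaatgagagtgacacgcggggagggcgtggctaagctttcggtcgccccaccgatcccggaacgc
Irf8, chr8:120736108-120736407: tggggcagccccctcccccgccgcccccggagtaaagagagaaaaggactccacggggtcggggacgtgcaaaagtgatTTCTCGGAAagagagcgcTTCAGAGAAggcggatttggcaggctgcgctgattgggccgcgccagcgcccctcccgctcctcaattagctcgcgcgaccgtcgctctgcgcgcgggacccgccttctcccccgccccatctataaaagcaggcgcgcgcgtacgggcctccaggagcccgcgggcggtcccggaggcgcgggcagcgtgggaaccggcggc
The Irf2 promoter held an ISRE core match and a GAS match a few bases apart. The Irf8 promoter held 2 GAS matches although Irf8 was absent from both tables, so the letters alone did not separate listed from unlisted genes. A match is a description of the sequence, and no binding was measured in these data.

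Elements were also read for the motifs. Of 38918 distinct elements of 500 bases in either table, 15.2% held a GAS match and 7.97% an ISRE core match. Among 17 elements of that width paired with the STAT and IRF genes, 2 held a GAS match and 1 an ISRE core match. Elements whose ends differ between the tables count in each, and the 2 GAS matches at 500 bases are the same site of Stat3. The middle 300 bases of the element with the highest score for Irf1 and, with 15 bases on each side, matches in elements of Stat2, Irf1, Stat3 and Irf9 are shown on the plus strand, with matches in capitals, as examples of both motifs in elements described below.
Irf1 element at +9.92 kb, chr11:53779781-53780080: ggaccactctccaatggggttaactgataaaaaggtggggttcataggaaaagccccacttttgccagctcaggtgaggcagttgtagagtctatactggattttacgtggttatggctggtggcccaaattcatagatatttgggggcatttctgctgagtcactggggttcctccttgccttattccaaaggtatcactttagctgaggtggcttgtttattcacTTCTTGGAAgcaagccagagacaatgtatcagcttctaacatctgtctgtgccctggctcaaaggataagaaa
Irf1 same element, first match, chr11:53779626-53779664: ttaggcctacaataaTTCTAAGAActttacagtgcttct
Stat3 element at -7.47 kb, chr11:100946782-100946820: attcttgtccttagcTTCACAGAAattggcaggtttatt
Stat3 intronic element at +7.77 kb, chr11:100931761-100931800: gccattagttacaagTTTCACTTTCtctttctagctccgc
Stat2 element at +8.06 kb, chr10:128278265-128278303: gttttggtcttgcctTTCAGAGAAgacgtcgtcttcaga
Irf9 element at +9.32 kb, chr14:55613039-55613078: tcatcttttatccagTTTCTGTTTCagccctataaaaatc
A GAS match that is not shown lay in the Irf7 element over Cdhr5 exons listed in Ctr-OPCs, beyond the end of the narrower element listed with IFN-γ. The intronic Stat3 element held a second ISRE core match that overlapped the first. The Irf2 element at +13.5 kb also held 2 ISRE core matches, both in a stretch made up mainly of C and T.

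The STAT and IRF genes had more listed pairs with IFN-γ, most of the difference at Irf1. The activity-by-contact (ABC) score of an element-gene pair is the share of the gene's total input, activity times contact over all its elements, that the element holds. The tables start at a score of 0.02, and a pair above 0.05 was called a connection, the cut-off of the study. The 9 genes had 10 pairs in Ctr-OPCs and 20 with IFN-γ, and without Irf1 the numbers were 10 and 13. Over all genes the tables listed 66637 and 71478 pairs. Connections numbered 2 in each table, from Irf2 and Irf7 in Ctr-OPCs and from Irf1 and Irf2 in IFN-γ-OPCs. Irf1 had 1 connection more with IFN-γ and Irf7 had 1 fewer, where 14.9% of all 32049 target genes had more and 13.0% had fewer. The gene's own promoter is never listed as its element.

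**Figure D1:**
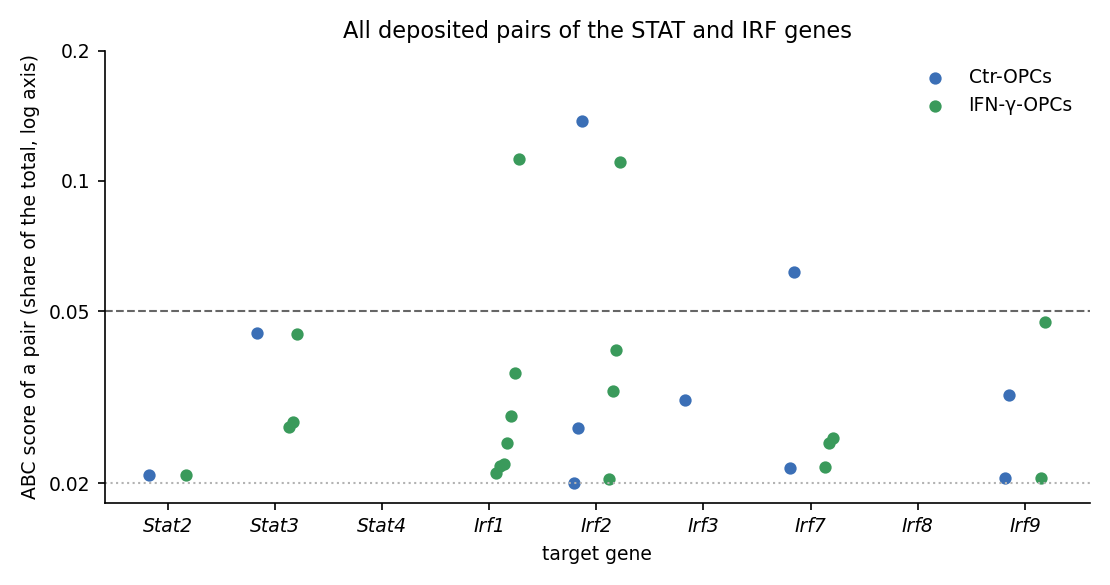
ABC score of every listed pair (log axis, share of the gene's total) for each STAT and IRF gene in Ctr-OPCs (blue) and IFN-γ-OPCs (green), 1 point per pair; the dashed line marks the connection cut-off of 0.05 and the dotted line the lowest listed score of 0.02. Irf1 has 7 points in IFN-γ-OPCs and none in Ctr-OPCs, and Stat4 and Irf8 have no point.

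Stat2, Stat3, Irf2, Irf7 and Irf9 were listed in both tables. Irf1 was listed with IFN-γ alone, as were 19.6% of all target genes, and Irf3 in Ctr-OPCs alone, as were 17.0%. Stat4 and Irf8 were listed in neither. A table holds a gene when its promoter activity quantile is at least 0.4 and an element other than its promoter reaches the lowest score. Which of these limits an absent gene missed was not tested.

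The promoters of the 5 genes listed in both tables all ranked higher with IFN-γ. The promoter activity quantile is the rank of a promoter in its condition, from 0 to 1, over a set of promoters wider than those listed, since no listed gene lies below 0.4. It was 0.694 in Ctr-OPCs and 0.874 with IFN-γ for Irf9, the DNA-binding partner of STAT2. It was 0.881 and 0.983 for Stat2, and 0.870 and 0.978 for Irf2, which competes with IRF1 for the same sites. For Irf7, an amplifier of type I interferon production, it was 0.770 and 0.829. Stat3, which mediates cytokine signals of the interleukin 6 family, started near the top, at 0.997 and 0.998. The quantile was thus higher in 5 of 5 genes, against 49.5% of the 20321 genes listed in both tables, and higher by over 0.1 in 3 of 5, against 8.79%. Stat2 and Irf2 passed that last limit only just, with differences of 0.102 and 0.108, while Irf9 differed by 0.180. Irf1 stood at 0.992 in IFN-γ-OPCs and Irf3, a factor activated by sensors of viral nucleic acid, at 0.872 in Ctr-OPCs. Gm16675, on the opposite strand, starts at -217 bases of the Irf2 start, and its quantile was 0.867 and 0.970; how much of the activity the promoters of both genes share was not tested.

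**Figure D2:**
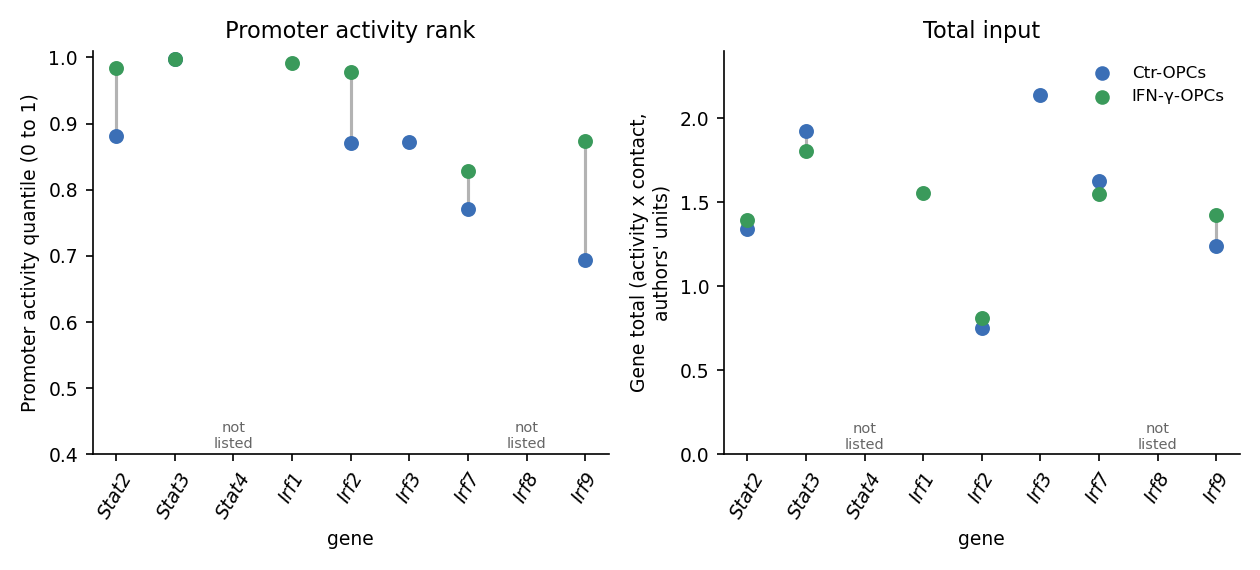
Promoter activity quantile (left, axis from 0.4) and gene total (right, activity times contact in the authors' units) of each STAT and IRF gene in Ctr-OPCs (blue) and IFN-γ-OPCs (green), with a grey line joining the 2 tables; each point is 1 pooled value without error. The quantile is higher in IFN-γ-OPCs for all 5 genes with both points, and the totals lie close together.

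The totals of the same genes moved little. From Ctr-OPCs to IFN-γ-OPCs the gene total went from 1.24 to 1.43 for Irf9, from 1.34 to 1.39 for Stat2 and from 0.752 to 0.814 for Irf2. It went from 1.92 to 1.81 for Stat3 and from 1.62 to 1.55 for Irf7. Totals of 1.56 for Irf1 in IFN-γ-OPCs and 2.14 for Irf3 in Ctr-OPCs had no counterpart. Among the STAT and IRF genes, Stat3 had the highest total in IFN-γ-OPCs, and Irf2 the lowest in both tables. On the log2 scale the ratios of total with IFN-γ over Ctr were 0.20 for Irf9, 0.11 for Irf2, 0.05 for Stat2, -0.07 for Irf7 and -0.09 for Stat3. The median was 0.05, against -0.07 over the 20321 genes, whose log2 ratios had an SD of 0.19 across genes. The total was higher in 3 of 5, against 35.7% of all genes, and none of the 5 passed 1.5-fold, against 0.615% of all genes higher and 0.118% lower. Irf9 lay at the 90.2nd percentile of all genes, Irf2 at the 82.2nd, Stat2 at the 74.5th, Irf7 at the 49.3rd and Stat3 at the 43.1st. Genes whose start sites lie in the same 5 kb contact bin had the same total within 1% in all 2979 such bins of Ctr-OPCs and all 3055 of IFN-γ-OPCs, so a total describes the bin of the promoter more than a single gene.

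Irf1, a factor induced directly by IFN-γ that activates antigen presentation genes, had the most listed elements of these genes. It had 7 pairs in IFN-γ-OPCs, which held 26.7% of its total, and none in Ctr-OPCs. In IFN-γ-OPCs 3.91% of listed genes had 7 or more pairs, and of the 6270 genes listed with IFN-γ alone 210 did, or 3.35%. The Irf1 gene lies on the plus strand at chr11:53770014-53778374 (mm10). Of the 7 elements, 2 lay upstream, at -32.7 and -7.92 kb of the start site, 1 over its own last exons at +6.61 kb, and 4 beyond the end of the gene, at +8.88, +9.92, +11.7 and +16.3 kb.

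The highest-scoring Irf1 element, at +9.92 kb (chr11:53779250-53780612), was intergenic, 1363 bases wide and held both GAS matches shown above. Its activity was 2.05, its contact with the promoter 0.0857 and its score 0.113. The deposited power-law score, which takes contact from distance alone, was 0.0484 and did not pass the cut-off. The contact was 1.26 times the value that a power law of distance gives, and the neighbouring element at +8.88 kb was at 1.14 times. These were the only pairs of the STAT and IRF genes above the power law, 2 of 20 in IFN-γ-OPCs against 24.1% of all pairs, and 0 of 10 in Ctr-OPCs against 21.0%. The elements at +6.61, +8.88 and +9.92 kb had the same contact because they fall in 1 contact bin, so activity alone ordered their scores of 0.0285, 0.0360 and 0.113. The remaining 4 elements scored 0.0211 to 0.0248.

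The 5 elements within and downstream of Irf1 overlapped no element listed in Ctr-OPCs for any gene. Since neither Irf1 nor Gm17334, the predicted gene in the same contact bin that shared all 7 elements, was listed in Ctr-OPCs, an element that served only them could not appear there. The 2 upstream elements were listed in Ctr-OPCs for other genes, Gm12213 and Mir7671. The element at -32.7 kb had an activity of 0.958 in Ctr-OPCs and 1.63 with IFN-γ, at 500 bases in both tables, which is 1.70-fold higher. The element at -7.92 kb had 1.15 and 1.98, or 1.73-fold, at 890 and 500 bases. Both entered through the IFN-γ-OPC table alone, and a listing there needs a high enough score, which grows with activity, so their higher activity with IFN-γ is a description and supports nothing further. Mir7671, a microRNA gene upstream of Irf1 named after its values were seen, had a total of 1.14 and 1.59 and a promoter quantile of 0.791 and 0.999.

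**Figure D3:**
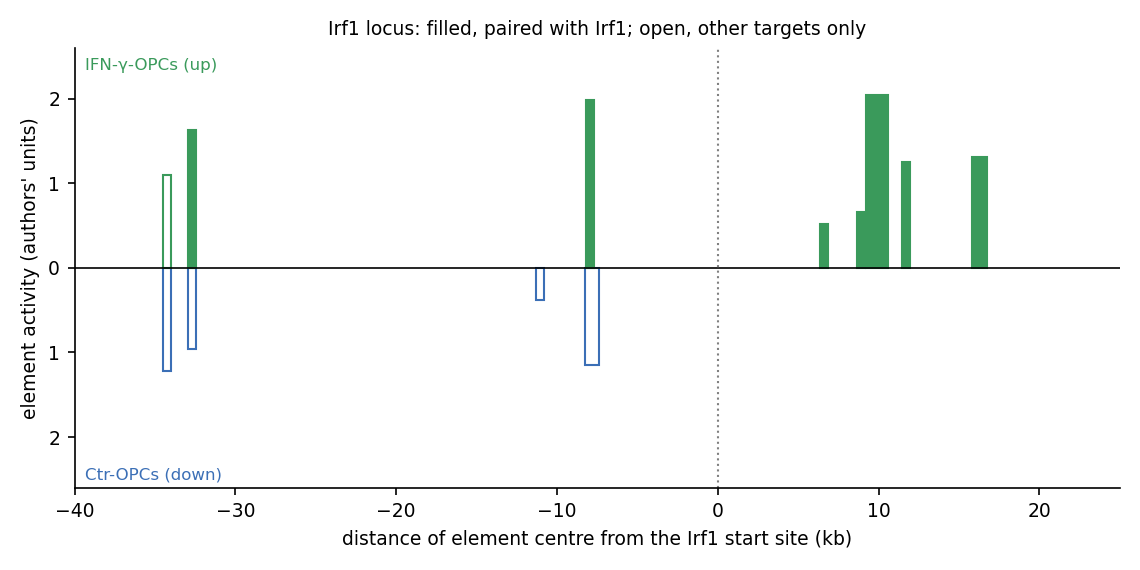
Listed elements around the Irf1 start site by distance (kb, positive along the direction of transcription) and activity (authors' units), IFN-γ-OPCs upward in green and Ctr-OPCs downward in blue, bars at the width of the element; filled bars are paired with Irf1 and open bars with other genes only. All 7 filled bars are in IFN-γ-OPCs, and the 5 to the right of the start site have no bar of Ctr-OPCs opposite.

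Irf2, a largely repressive relative of IRF1, kept a connection in both tables with its intronic element near the start site. This element (chr8:46740950-46741449 in Ctr-OPCs) had an activity of 2.52 in Ctr-OPCs at 500 bases and 3.36 in IFN-γ-OPCs at 1092 bases, a contact of 0.0410 and 0.0268, and a score of 0.137 and 0.111. The element was also wider with IFN-γ, and its activity per base was 0.610 times that in Ctr-OPCs. The element was rich in G and C, 73.6% of its bases in the Ctr-OPC table. Its other targets were Gm16675, Gm31172, Gm45479, Gm45481 and Cenpu in Ctr-OPCs. In IFN-γ-OPCs they were Gm16675, Gm45479, Gm45481, 1700011L03Rik, Gm31172, Gm45253, Actg-ps1 and Gm39168.

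The farthest Irf2 element differed in contact and hardly in activity. This element, at -52.7 kb (chr8:46686782-46687281 in Ctr-OPCs) in an intron of Gm16675, had an activity of 2.43 and 2.38 and a contact of 0.00620 and 0.0139, which is 2.24-fold higher with IFN-γ, and its score went from just above the lowest listed one to 0.0406, a 2.03-fold difference. The log2 ratio of contact was 1.17, against a median of 0.05 and an SD of 0.50 across all 29858 matched pairs. The contact was low, at 0.39 and 0.87 times the power law value. No other element of the STAT and IRF genes in either table lay farther from its start site. An intronic element at +30.3 kb had an activity of 2.78 and 3.21 and a score of 0.0268 and 0.0327. A further intronic element at +13.5 kb was listed with IFN-γ alone, at a score of 0.0204. All Irf2 elements in both tables were also assigned to Gm16675.

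**Figure D4:**
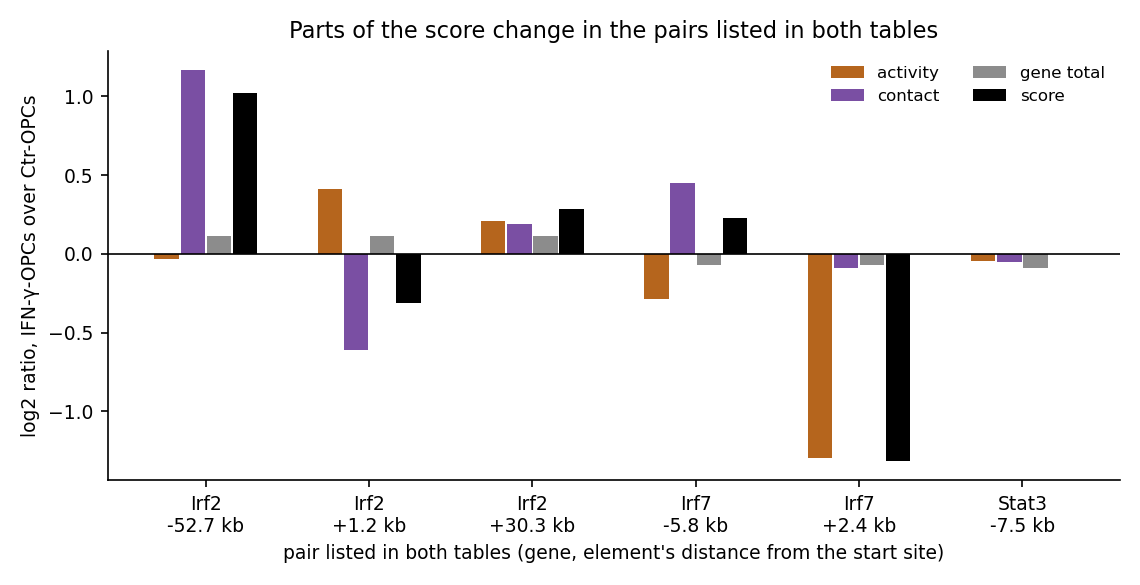
Log2 ratio of IFN-γ-OPCs over Ctr-OPCs for the 6 pairs of the STAT and IRF genes matched between the tables, split into activity (brown), contact (purple), gene total (grey) and score (black); the score ratio is activity plus contact minus total. The Irf2 pair at -52.7 kb changes by contact, and the black bar of Stat3 is too small to see. The Irf7 pair at +2.4 kb differs in activity, but sets a 1615-base element against a 557-base one, 1 of 2 over that stretch with IFN-γ. Its activity per base was 1.18-fold higher.

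Stat3 kept the same leading element. The intergenic element at -7.47 kb (chr11:100946756-100947255 in Ctr-OPCs) had an activity of 3.15 in Ctr-OPCs and 3.06 with IFN-γ, a contact of 0.0271 and 0.0262, and a score of 0.0444 in both tables. It held the GAS match shown above. IFN-γ-OPCs listed 2 more elements, both inside Stat3: one at +34.5 kb with an activity of 2.74 and a score of 0.0269, and the intronic one at +7.77 kb with the overlapping ISRE core matches, an activity of 0.880 and a score of 0.0277. No Stat3 element was shared with another gene. Its listed pairs held 4.44% of the total in Ctr-OPCs and 9.90% with IFN-γ.

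Stat2, the partner of IRF9, had 1 pair in each table, over different exons of its own gene. In Ctr-OPCs the element at +13.2 kb (chr10:128283050-128284465) scored 0.0208 with a contact of 0.0293. In IFN-γ-OPCs the element at +8.06 kb (chr10:128278265-128278964) scored 0.0209 with a contact of 0.0628. Both scores lay just above the lowest listed one, so the switch of elements rests on small differences. An element that overlapped the Ctr-OPC one was listed with IFN-γ, for Apof alone. Its activity was 1.26 at 1556 bases, against 0.952 at 1416 bases, or 1.20-fold per base. Since it was not listed for Stat2, its score was under 0.02, which at its activity and the Stat2 total puts its contact with Stat2 below 0.0221 there.

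Irf9 shared no pair between the tables. Ctr-OPCs listed an element over its own exons at +4.58 kb (chr14:55607418-55608894), with an activity of 0.767 and a score of 0.0320, and one over exons of Rec8 at +20.2 kb, with 1.04 and 0.0206. IFN-γ-OPCs listed an element over exons of Rnf31 at -7.35 kb (chr14:55595972-55596471), with an activity of 1.04, a contact of 0.0644 and a score of 0.0470, close to the cut-off for a connection. It was also paired with Psme2, which encodes a proteasome activator subunit, Rnf31, a subunit of the linear ubiquitin ligase complex, and Emc9. Psme2 and Rnf31 were listed with IFN-γ alone, at promoter quantiles of 0.998 and 0.987. A second element, at +9.32 kb, held the ISRE core match shown above and scored 0.0205. The Rec8 element was narrower in IFN-γ-OPCs, where its best match had 0.559 times the activity at 753 against 1116 bases, or 0.829 times per base.

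Irf7 had a connection in Ctr-OPCs alone, and its element was divided with IFN-γ. In Ctr-OPCs a 1615-base element over its own exons (chr7:141263436-141265050) had an activity of 1.53 and a score of 0.0615. In IFN-γ-OPCs the same stretch held 2 elements, of 557 and 500 bases, with activities of 0.623 and 0.549 and scores of 0.0248 and 0.0218. The contact was 0.0653 and 0.0614. Together the 2 elements covered 1057 bases with a summed activity of 1.17 and a summed score of 0.0465. Per 500 bases the activity was 0.473 in Ctr-OPCs and 0.554 with IFN-γ, so the direction of the difference depended on the width. The other Irf7 element, over exons of Cdhr5 upstream, had an activity of 1.05 and 0.861, a contact of 0.0334 and 0.0457 and a score of 0.0217 and 0.0254, and it was shared with Cdhr5 and Sct.

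**Figure D5:**
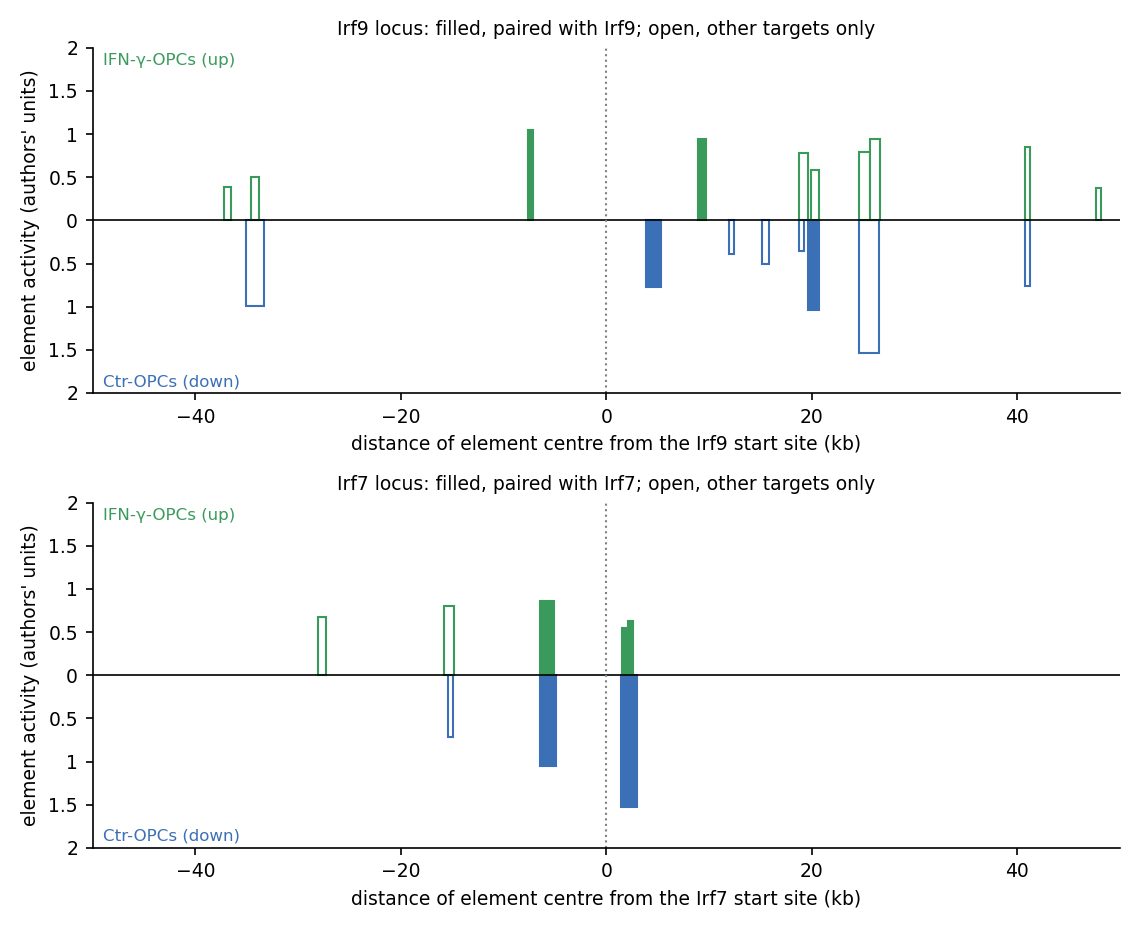
Listed elements within 50 kb of the Irf9 (top) and Irf7 (bottom) start sites by distance (kb) and activity (authors' units), IFN-γ-OPCs upward in green and Ctr-OPCs downward in blue, bars at the width of the element; filled bars are paired with the named gene and open bars with other genes only. The filled bars of Irf9 lie at different places in the 2 tables, and the single wide Irf7 bar of Ctr-OPCs at +2.24 kb faces 2 narrow ones.

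Irf3 had 1 pair, in Ctr-OPCs, with an element in an intron of Prmt1 at -11.9 kb (chr7:44985509-44986008) that had an activity of 1.82 and a score of 0.0312. It was shared with Prmt1, which encodes an arginine methyltransferase, Gm15545 and Bcl2l12, and no element listed in IFN-γ-OPCs overlapped it. Prmt1 and Bcl2l12 were absent from the IFN-γ-OPC table as well. An element that served only genes absent there could not appear, so the missing overlap does not show that the element was lost. Stat4, which transmits interleukin 12 signals in lymphocytes, and Irf8, a factor of myeloid cells, had no pair. Within 50 kb of the Stat4 start site 1 element was listed in Ctr-OPCs and 3 with IFN-γ, all for predicted genes. Within 50 kb of the Irf8 start site there were 0 and 1.

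Among elements of the STAT and IRF genes that could be matched between the tables, 10 in number, activity was higher with IFN-γ in 5, against 42.1% of all 19332 matched elements. It was higher by over 1.5-fold in 2, both at Irf1, against 9.37%, and lower by over 1.5-fold in 2, at Irf7 and Irf9, against 13.3%. The Irf7 match was only 1 of the 2 elements over that stretch with IFN-γ, whose summed activity was 1.17 against 1.53 in Ctr-OPCs. Per base, the same 2 Irf1 elements were higher by over 1.5-fold, against 7.99% of all matched elements, and 1, the intronic Irf2 element, was lower by as much, against 5.22%. The Irf1 elements were paired with Irf1 with IFN-γ alone and the Irf9 element with Irf9 in Ctr-OPCs alone, each in the table where it was more active, so these counts are a description of chosen elements. The median log2 ratio of activity was 0.09, against -0.08 over all matched elements. Of 6 matched pairs, contact was higher in 3, against 54.6% of all 29858 matched pairs, and the score in 3, against 51.4%. The median log2 ratio of contact was 0.07, against 0.05 over all pairs. These shares lay near those of all elements and pairs, or rest on too few members to be read.

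Pairs of the STAT and IRF genes were shared with other genes about as often as those of all genes. An element was also assigned to another gene in 7 of 10 pairs in Ctr-OPCs and 14 of 20 in IFN-γ-OPCs, where 70.2% and 69.7% of all pairs had such an element. Of the 20 pairs in IFN-γ-OPCs, 16 lay within 20 kb of the start site, against 53.8% of all pairs, as did 7 of the 10 in Ctr-OPCs, against 54.5%.

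The other genes of interferon signalling, 23 receptors, kinases, inhibitors and further STAT and IRF genes and IRF2 binding proteins, had a median total ratio near that of all genes. Of these, 17 were listed in both tables, 6 had a higher total with IFN-γ, near the 35.7% of all genes, and none passed 1.5-fold. Their log2 ratios of total ranged from -0.25 to 0.46 with a median of -0.06, against -0.07 over all genes. Socs1, a feedback inhibitor of JAK kinases, had a total of 1.17 in Ctr-OPCs and 1.60 with IFN-γ, a ratio of 0.46, and Jak2, a kinase of the IFN-γ receptor, had 0.651 and 0.893, a ratio of 0.45. Both lay at the 98.4th percentile of all genes, and Irf4 followed at 0.08. The lowest were Tyk2, a kinase of the type I interferon receptor, at -0.25, the 8.73rd percentile, the phosphatase gene Ptpn6 at -0.22 and Irf5 at -0.14. The promoter quantile was higher in 9 and lower in 8 of the 17, near the 49.5% higher of all genes, by over 0.1 in none upward and in 2 downward, where 8.45% of all genes were lower by that much. Connections of the list numbered 8 in Ctr-OPCs and 10 with IFN-γ, with more in 5 and fewer in 3 of the 23 genes, against 14.9% and 13.0% of all target genes.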

How the data were processed

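Per the study's methods and the submitters' processing notes, HiC-Pro mapped the HiChIP reads to mm10 and removed duplicates, and the ABC model joined these contacts, at 5 kb, to ATAC-seq and CUT&RUN of H3K27ac. The activity of an element is the signal the authors obtained from its ATAC-seq and H3K27ac coverage. The ABC score was deposited as a fraction of the gene total. The contact (scaled, pseudocount added), its product with activity, the power-law score and the promoter activity quantile, a rank from 0 to 1 over a wider set of promoters, were deposited as further scores. How the authors scaled activity between conditions is not stated, and elements were called separately in each table, so that their widths, at least 500 bases, differ. Activity is not proportional to width: elements of 500 bases had a median activity of 0.941 in Ctr-OPCs, and the next wider class 0.672. The short tables and the pair lists were not used for values.

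The gene total was recovered from each pair as activity times contact over score, and the median over the pairs of a gene was taken. Elements were matched by best mutual overlap of at least 1 bp, and pairs also by target gene. All 9 genes were found in GENCODE M21 (GRCm38), which gave symbols and exons. Distances run from the start site in the tables to the centre of the element, positive along transcription, and positions are 1-based. The genes named were all 9 factors, the other targets of their highest-scoring elements, and the 3 highest and 3 lowest totals of the signalling list. Ifnar2, at -0.14, nearly tied with Irf5 for the last of these. Mir7671, Gm12213 and Rec8 were named once their values were known. The members and lists were chosen with earlier results of these data known. The 50 kb window, the 0.1 limit on the quantile and activity per base were chosen after seeing the data. Alternatives covered the score cut-off, the kind of score, scaling by the median, the match of elements, the fold and activity per base. Procedures were tested on simulated data. Python 3.11.15, pandas 2.3.3, NumPy 2.4.6, pysam 0.24.0 and matplotlib 3.10.9 were used.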

Additional observations from a re-analysis of the deposited data

How the results depend on the processing

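No paired analysis was possible because the 3 libraries of a condition are pooled in its table, although the labels number replicates alike in both groups, and for the same reason no library could be left out. The number of connections depended on the cut-off. Over all listed pairs there were 10 in Ctr-OPCs and 20 with IFN-γ, and above a score of 0.1 there were 1 and 2. With the power-law score above 0.05 there were 4 and 3, so that Ctr-OPCs had more: the Irf1 element at +9.92 kb then scored 0.0484, under the cut-off, and the Irf1 connection was the element at -7.92 kb, at 0.0570. The change of Irf7 was -1 connection in the main setting and 1 over all listed pairs, where its wide Ctr-OPC element faces 2 narrower ones. At 2-fold in place of 1.5-fold, 0 matched elements were higher and 1 was lower. Lower elements numbered 1 with a reciprocal overlap of 50%, and 1 with activity per base, a setting chosen after seeing the data. The median log2 ratio of contact was 0.32 over the 4 pairs that a reciprocal overlap of 50% left. A promoter quantile higher by over 0.1, also chosen after seeing the data, was found in 3 of 5 genes. No total passed 1.5-fold under any setting tried, and the power-law total of Irf2 had a log2 ratio of 0.40 against 0.11. Of the values for single genes, 28 moved by no more than the tolerance of 0.1 on the log2 scale or kept their count, 8 moved by more and 1 changed sign. Depth is unknown and sets no stated limit on these values.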
